A study of Mus musculus with 6 samples.

Results

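The 40 genes described here mark macrophages, neutrophils, monocytes, dendritic cells and Langerhans cells, the myeloid leukocytes of a tissue. They were picked by name, with earlier results of these data known, so their shares set against all genes are a description. Of them, 39 had a row among the 24067 genes of a table of RNA-seq read counts, 38 by symbol. Adgre1 stood there under its older symbol Emr1. Levels of Ly6g were not analysed here. The libraries came from tongues of C57BL/6 mice about 34 weeks old, 3 carrying the label HuR wild type (WT) and 3 the label HuR knockout (KO). The mice of all 6 libraries, controls included, had received the carcinogen 4-nitroquinoline 1-oxide (4NQO) over 16 weeks. A wait of 12 weeks without it followed, so that each library held tongue with tumour. HuR is an RNA-binding protein encoded by Elavl1. No source used here gives the allele or the cells in which it was removed, nor whether each library came from 1 animal, so that p-values measure only the spread between these libraries.

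Myeloid cells come from bone marrow and fall into kinds that need different growth factors. Neutrophils depend on the receptor for granulocyte colony-stimulating factor, Csf3r, leave the blood along chemokine gradients and fill wounded or infected mucosa for short periods. Macrophages depend on the receptor for macrophage colony-stimulating factor, Csf1r, and many live in the tissue for long periods, where they clear dead cells and debris. Dendritic cells depend on Flt3 and carry antigen to lymph nodes, and Langerhans cells are the antigen-presenting cells within stratified epithelium. The transcription factor PU.1, encoded by Spi1, binds GA-rich sites with a GGAA core at the promoters of many myeloid genes, and C/EBP factors take part in the neutrophil programme.

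The promoter stretches of 4 of these genes are shown, because Clec4d and Clec4e are neighbouring neutrophil-type genes that stood higher in the libraries labelled KO, Fcgr1 stood for the Fc receptors, and Folr2 was the gene that fell. Each is the 250 bases before an annotated RefSeq start in GRCm38.p6, written 5′ to 3′ on the gene's strand. Capitals mark GAGGAAG, a PU.1-type motif, or TTGCNNAA, a C/EBP-type motif, on either strand, and the motifs did not overlap there.
Clec4d, chr6:123261857-123262106: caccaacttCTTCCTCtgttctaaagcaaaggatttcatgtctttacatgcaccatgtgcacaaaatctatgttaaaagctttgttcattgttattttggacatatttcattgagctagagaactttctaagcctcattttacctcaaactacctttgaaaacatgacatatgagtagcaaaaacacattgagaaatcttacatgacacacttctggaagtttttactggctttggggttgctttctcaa
Clec4e, chr6:123289872-123290121: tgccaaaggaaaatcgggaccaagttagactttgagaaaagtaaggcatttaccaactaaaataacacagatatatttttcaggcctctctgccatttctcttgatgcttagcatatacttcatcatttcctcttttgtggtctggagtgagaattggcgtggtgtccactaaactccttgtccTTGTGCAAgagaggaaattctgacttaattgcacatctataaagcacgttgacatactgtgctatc
Fcgr1, chr3:96293970-96294219: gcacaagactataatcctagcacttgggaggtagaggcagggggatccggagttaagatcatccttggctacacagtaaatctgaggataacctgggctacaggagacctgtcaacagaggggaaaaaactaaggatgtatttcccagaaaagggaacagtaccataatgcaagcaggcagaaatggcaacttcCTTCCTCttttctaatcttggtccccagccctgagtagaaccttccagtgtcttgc
Folr2, chr7:101845332-101845581: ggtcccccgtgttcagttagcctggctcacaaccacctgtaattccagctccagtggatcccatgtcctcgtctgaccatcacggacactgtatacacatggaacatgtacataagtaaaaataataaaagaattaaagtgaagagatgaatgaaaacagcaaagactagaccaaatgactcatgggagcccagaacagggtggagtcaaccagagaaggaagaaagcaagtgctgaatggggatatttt
Folr2 has another annotated start upstream, and neither of its windows held a motif. RefSeq starts were found for 31 of the 40 genes, in 36 windows. GAGGAAG stood in 18 of the 36 windows (50%), against 10.6% of all 32851 promoter windows. The windows of Ly6g, of Ly6c2 and of Fcgr3 overlapped within each gene, so a motif can count in more than 1 window. By gene, GAGGAAG stood upstream of 15 of 31, against 3244 of all 27025 genes. Among the 15 were 5 of 5 monocyte and Fc receptor genes (Fcgr1, Fcgr3, Fcgr4, Ly6c2 and Trem2), 3 of 7 neutrophil-type genes and 3 of 7 resident macrophage genes. TTGCNNAA stood in 5 of the 36 windows (13.9%), against 9.56% of all windows. By gene, it stood upstream of 4 of 31, against 2930 of all 27025 genes. It stood upstream of 2 of 7 neutrophil-type genes, Clec4e and Ly6g, and of 0 of 7 resident macrophage genes. These are counts of letters and not of bound sites.

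Levels below are CPM, the counts of a library divided by its effective size. Changes are log2 ratios, libraries labelled KO over those labelled WT, ± SE. A gene rose or fell where its edgeR adjusted p was under 0.05. Total counts ranged from 29543352 (WT replicate 3) to 51520707 (KO replicate 3) per library. Elavl1 stood at 65.0, 59.3 and 78.4 CPM in the libraries labelled KO and at 61.7, 55.8 and 48.0 CPM in those labelled WT (exact permutation p = 0.2, 2-sided, where the smallest possible is 0.1). That test could not have reached 0.05. By edgeR, the log2 fold change of Elavl1 was 0.29 ± 0.15 (edgeR adjusted p = 0.180), and the groups overlapped. A lower level of the targeted gene under the KO label was not seen, so each direction below is one between labels. KO replicates 2 and 3 had 1271 and 1104 CPM of Xist, and the other 4 libraries had no more than 2.50 CPM. Sex therefore differed within the KO label, and no WT library was female. The 10 keratinocyte markers summed to 39139 to 48497 CPM in the libraries labelled KO and 19983 to 30157 CPM in those labelled WT, and the 10 skeletal muscle markers to 36285 to 51461 and 65262 to 121163 CPM. Epithelial and muscle content thus moved with the label, WT replicate 1 lay nearest to the KO libraries on both, and the part of that content in the results below was not tested. Lower numbers of a cell type and less RNA per cell cannot be told apart in whole tissue.

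Of the 37 myeloid genes with enough reads to test, 4 rose, Clec4d, Csf3r, Arg1 and Cd14, and 1 fell, Folr2. That is 10.8% higher against 4.81% of all 15903 genes tested, and 2.70% lower against 7.43%. Called in either direction were 13.5% of them and 12.2% of all genes tested, so that the number of calls was near the background. At an unadjusted p under 0.05, 16 were higher (43.2%, against 18.2%) and 2 lower (5.41%, against 20.3%). The libraries did not overlap for 15 genes higher in KO (40.5%, against 22.0% of all genes) and for 3 lower (8.11%, against 22.1%). The median log2 fold change was 0.35, against 0.02 over all genes tested, and 28 of 37 (75.7%) stood above 0, against 51.3% of all genes. KO replicate 1 had the Xist level of the WT libraries. It lay above every WT library for 22 of the 37 (59.5%, against 38.6% of all genes). It lay below every WT library for 3 (8.11%, against 37.1%). Among the 37, Trem1, Clec4d and Clec4e reached the limit on low counts in fewer than 3 WT libraries. They entered the test through their KO libraries, so these counts, shares and the median are a description only. All 5 calls were lost by edgeR without KO replicate 1, without KO replicate 2 or without WT replicate 2. Over all genes, those fits called 4, 0 and 0 higher and 6, 0 and 1 lower. Without WT replicate 1, 18 of the 38 members then tested rose and 1 fell, beside 2906 and 2938 of all 16230 genes tested. Scaled to 6 pan-leukocyte markers in place of all genes, 3 myeloid genes rose (Trem1, Clec4d and Arg1) and 9 fell. Folr2, Timd4, Lyve1, Cd163, Mrc1 and Csf1r were among those 9. Of all 15903 genes tested, 268 rose and 6667 fell at that scaling, with the median of all genes at -0.68.

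**Figure D1:**
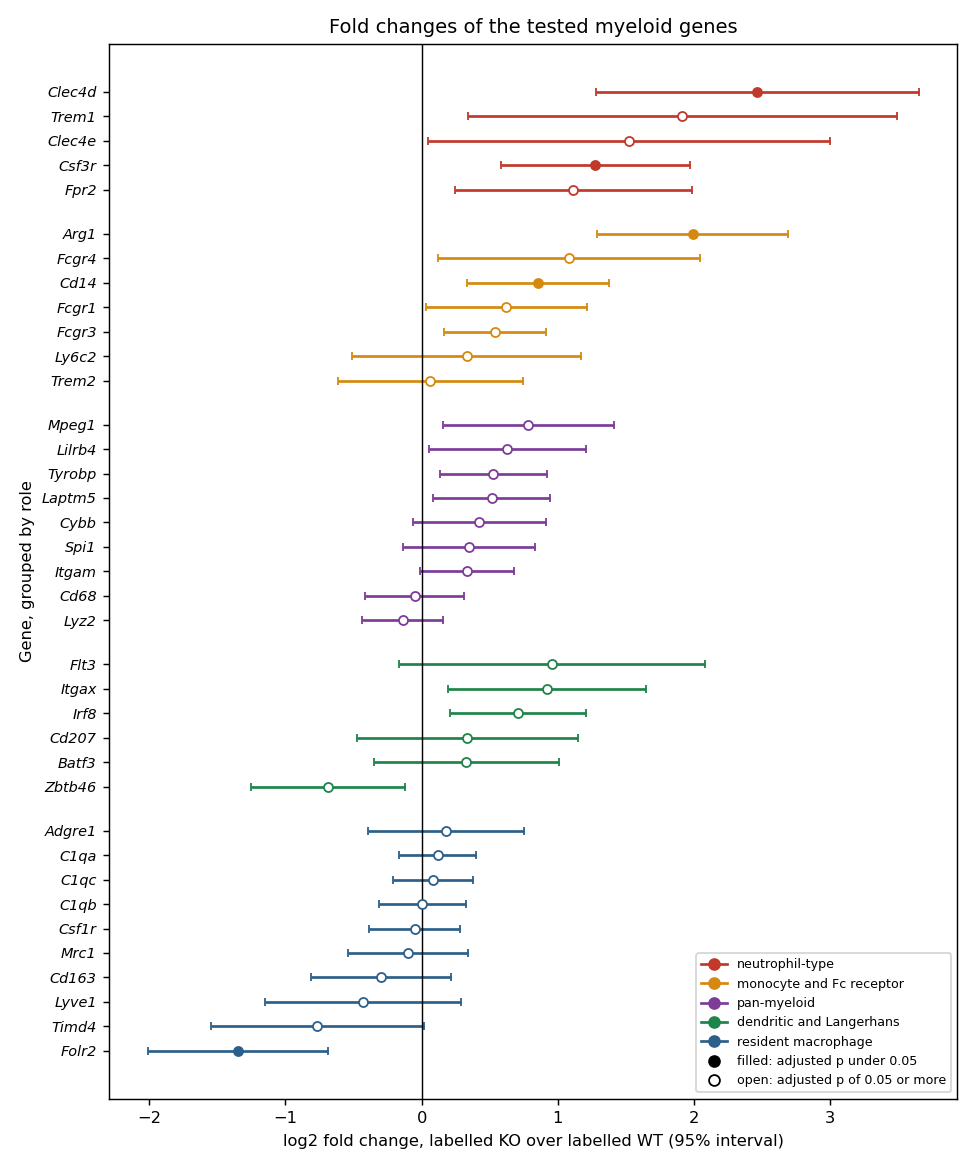
Log2 fold changes of the 37 tested myeloid genes, labelled KO over labelled WT (x axis), with 95% intervals, grouped by role on the y axis. Filled points have an edgeR adjusted p under 0.05. The neutrophil-type genes lie between 1.11 and 2.46, and the resident macrophage genes between -1.35 and 0.18.

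Neutrophil-type genes had the highest median of the roles, at 1.52. Clec4d encodes a C-type lectin receptor of neutrophils and monocytes for microbial glycolipids, and Clec4e, or Mincle, is its partner at the same locus. Given here and below in the order of replicates 1, 2 and 3, Clec4d reached 3.40, 2.06 and 2.68 CPM in KO against 0.946, 0.313 and 0.195 CPM in WT. Every KO library lay above every WT library, and WT replicate 1 was the highest of its group. The mean rose from 0.485 ± 0.404 to 2.71 ± 0.669 CPM (SD, n = 3), a 5.52-fold change with a 95% interval of 2.42 to 12.6 (log2 2.46 ± 0.51, edgeR adjusted p = 0.0354). Csf3r, the receptor on which neutrophil production depends, stood at 10.7, 9.07 and 11.6 CPM in the libraries labelled KO and at 6.59, 3.09 and 3.28 CPM in those labelled WT. The KO libraries lay close together and above all WT libraries, with WT replicate 1 again between the groups. The change was 2.42-fold (interval 1.49 to 3.92, log2 1.28 ± 0.30, edgeR adjusted p = 0.0409). Csf3r lies at chromosome 4, 126023441 to 126044975, and Clec4d at chromosome 6, 123262107 to 123275268, in GRCm38.

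Of the other neutrophil-type genes, Trem1, Clec4e and Fpr2 were higher in every KO library than in every WT library without passing the test. Trem1, a receptor that amplifies neutrophil and monocyte activation, stood at 1.98, 1.16 and 1.49 CPM in KO against 0.946, 0.188 and 0.0782 CPM in WT (log2 1.91 ± 0.68, edgeR adjusted p = 0.0854). Clec4e stood at 1.48, 1.30 and 1.51 CPM in KO against 1.12, 0.146 and 0.234 CPM in WT (1.52 ± 0.64, edgeR adjusted p = 0.122). In both, WT replicate 1 was close to the KO range and the other WT libraries were several times lower. Fpr2, a receptor for formylated bacterial peptides, stood at 0.925 to 1.40 CPM in KO against 0.313 to 0.803 CPM in WT (1.11 ± 0.38, edgeR adjusted p = 0.0773). Its relative Fpr1 had 25, 4 and 17 reads in KO and 6, 2 and 1 in WT, under the limit for testing, and its groups overlapped. Trem1, Clec4d and Clec4e reached the limit on low counts in fewer than 3 WT libraries and entered the test through their KO libraries, so the role's count and median are no support for a difference. Without WT replicate 1 the median of the neutrophil-type genes was 2.96, and Trem1, Clec4e and Fpr2 rose as well (3.41, 2.97 and 1.51 on the log2 scale). With the keratinocyte mean as a covariate the median was 0.01, and with the muscle mean 0.36. The keratinocyte mean was 11.2 to 11.3 log2 CPM in KO and 9.58 to 10.8 in WT. The muscle mean was 10.6 to 11.3 log2 CPM in KO and 11.4 to 12.1 in WT. Both covariates were thus apart between the labels, so these fits cannot tell label from tissue content.

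**Figure D2:**
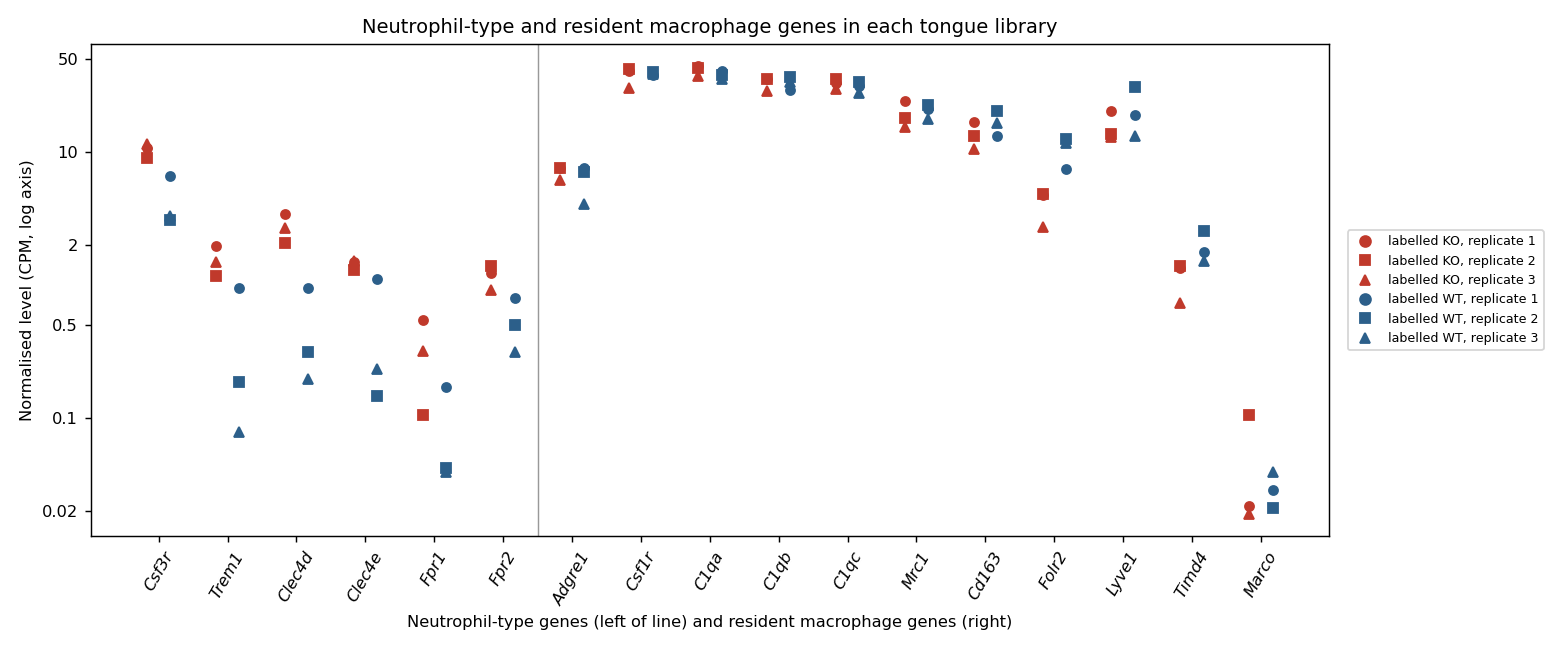
CPM (y axis, log scale) of the neutrophil-type genes, left of the line, and the resident macrophage genes, right of it, with 1 point per library. Csf3r, Trem1, Clec4d, Clec4e and Fpr2 are higher in each KO library than in each WT library. The groups overlap for Csf1r and the C1q genes, and Folr2 is lower in each KO library, at 2.76 to 4.87 against 7.42 to 12.5 CPM.

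Resident macrophage genes had a median of -0.08, against 0.02 over all genes, and 1 of 10 was called, near the 12.2% of all genes called. Csf1r, the receptor that macrophages need to survive, stood at 40.8, 42.0 and 30.5 CPM in the libraries labelled KO and at 38.4, 40.5 and 38.5 CPM in those labelled WT. The WT libraries lay within the KO range, and the 95% interval of the fold was 0.766 to 1.22. The chains of complement C1q, made mostly by tissue macrophages, were as even. C1qa stood at 41.5 ± 3.75 CPM in KO and 38.2 ± 2.92 CPM in WT, C1qb at 33.4 ± 3.73 and 33.3 ± 3.64 CPM, and C1qc at 32.9 ± 2.93 and 31.1 ± 2.83 CPM (SD, n = 3). Their fold changes were 1.09, 1.00 and 1.06, with 95% intervals of 0.893 to 1.32, 0.805 to 1.25 and 0.864 to 1.30. Adgre1, which encodes the macrophage antigen F4/80, stood at 6.15 to 7.64 CPM in KO against 4.10 to 7.60 CPM in WT (log2 0.18 ± 0.25). The mannose receptor Mrc1 stood at 15.5 to 24.3 CPM in KO and 17.7 to 22.8 CPM in WT (-0.10 ± 0.19). Cd163, the receptor that takes up haemoglobin, stood at 10.6 to 16.9 CPM in KO and 13.1 to 20.5 CPM in WT (-0.30 ± 0.22). Groups overlapped for each of these 7 genes.

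Folr2 was the exception and fell. It encodes folate receptor beta, found on long-lived perivascular and interstitial macrophages. Its level was 4.79, 4.87 and 2.76 CPM in KO against 7.42, 12.5 and 11.6 CPM in WT. Every KO library was below every WT library, and WT replicate 1 was the lowest of its group. The level was 0.393-fold that of WT (interval 0.248 to 0.621, log2 -1.35 ± 0.29, edgeR adjusted p = 0.0357). Without KO replicate 3, the library with the lowest level, the log2 fold change was -1.12 (edgeR adjusted p = 0.0650), and without WT replicate 3 it was -1.27 (0.0548). Over all 16 alternatives its adjusted p ranged from 8.92e-08 to 1.00. Folr2 lies at chromosome 7, 101839988 to 101857190, in GRCm38, and shares exonic bases with Gm10602 on the opposite strand, whose reads may be counted with it, since no strand setting is stated. Timd4, a phosphatidylserine receptor of self-renewing macrophages, stood at 1.35, 1.40 and 0.736 CPM in KO and 1.78, 2.56 and 1.52 CPM in WT. The groups did not overlap and the test was not passed (-0.77 ± 0.34, edgeR adjusted p = 0.135). Lyve1 stood at 13.1 to 20.3 CPM in KO and 13.2 to 31.1 CPM in WT (-0.43 ± 0.31). It marks both a macrophage subset and lymphatic endothelium, whose markers summed to 47.5 to 66.0 CPM in KO and 58.4 to 61.8 CPM in WT. Marco, a scavenger receptor, had 1 to 4 reads per library and was not tested.

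Genes shared by most myeloid cells lay between these roles, with a median of 0.42 and 0 of 9 called by edgeR, of which 4 were above WT and 0 below at an unadjusted p under 0.05 (18.2% and 20.3% of all genes). DESeq2 called Mpeg1 and Tyrobp of them higher, and limma-voom called 0. Tyrobp, or DAP12, the signalling adaptor of Trem1 and related receptors, stood at 12.3, 14.0 and 11.5 CPM in KO against 10.3, 7.78 and 8.05 CPM in WT (0.53 ± 0.17, edgeR adjusted p = 0.0694). Mpeg1, the pore-forming protein perforin-2, stood at 29.5, 36.8 and 24.6 CPM in KO against 24.7, 16.3 and 11.7 CPM in WT (0.78 ± 0.27, edgeR adjusted p = 0.0817). Laptm5, a lysosomal membrane protein of leukocytes, stood at 42.5, 51.2 and 39.6 CPM in KO against 39.3, 28.9 and 25.2 CPM in WT (0.51 ± 0.19, edgeR adjusted p = 0.0889). The groups were apart for Tyrobp and Laptm5, and KO replicate 3 met WT replicate 1 for Mpeg1. Itgam, the integrin CD11b, was at 0.33 ± 0.15, Cybb, the NADPH oxidase subunit gp91phox, at 0.42 ± 0.21, the inhibitory receptor Lilrb4 at 0.63 ± 0.25 and Spi1 at 0.35 ± 0.21. By contrast Lyz2, lysozyme M, stood at 93.6 ± 12.7 CPM in KO and 103 ± 2.33 CPM in WT (-0.14 ± 0.13), and Cd68, a lysosomal protein of macrophages, at 10.4 ± 1.03 and 10.8 ± 1.26 CPM (-0.05 ± 0.16).

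Arg1 and Cd14 rose among the monocyte and Fc receptor genes. Arg1, arginase 1, breaks down arginine, is induced in suppressive and wound macrophages and is also made in stratified epithelium. Arg1 reached 97.7, 75.6 and 40.7 CPM in KO against 15.6, 21.4 and 16.8 CPM in WT. The KO libraries differed from each other by over 2-fold, and the lowest of them was still above every WT library. The change was 3.97-fold (interval 2.44 to 6.46, log2 1.99 ± 0.30, edgeR adjusted p = 0.0295). Set against the basal keratin Krt14, the groups overlapped, at 2.15, 1.27 and 0.753 Arg1 reads per 100 Krt14 reads in KO and 0.440, 1.10 and 1.29 in WT. Set against Tyrobp they did not, at 355 to 795 Arg1 reads per 100 Tyrobp reads in KO and 151 to 275 in WT. The part of epithelial reads in the Arg1 change was not tested. Cd14, the co-receptor for bacterial lipopolysaccharide, stood at 11.5, 7.46 and 9.79 CPM in KO against 6.54, 4.98 and 4.38 CPM in WT (0.85 ± 0.23, edgeR adjusted p = 0.0485, the nearest to the threshold of the 5 called). The groups were apart, and relative to Tyrobp they overlapped, at 53.3 to 93.4 and 54.4 to 64.1 Cd14 reads per 100 Tyrobp reads.

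The activating Fc receptors, which bind antibody-coated particles, were each higher in every KO library without passing. Fcgr3 stood at 12.9, 12.6 and 10.1 CPM in KO against 8.94, 7.92 and 7.58 CPM in WT (0.54 ± 0.16, edgeR adjusted p = 0.0599). Fcgr4 stood at 2.66, 3.25 and 1.70 CPM in KO against 1.69, 1.29 and 0.547 CPM in WT (1.08 ± 0.42, edgeR adjusted p = 0.102). Fcgr1, the high-affinity receptor, had means of 3.28 ± 0.287 CPM in KO and 2.12 ± 0.596 CPM in WT (SD, n = 3, 0.62 ± 0.26, edgeR adjusted p = 0.116). WT replicate 1 was the highest WT library for each of the 3, and for Fcgr4 it nearly met KO replicate 3. Ly6c2, a marker of inflammatory monocytes, stood at 0.660 to 1.14 CPM in KO and 0.480 to 0.860 CPM in WT (0.33 ± 0.37). Trem2, a lipid receptor of macrophages, stood at 1.48 to 1.88 and 1.21 to 2.19 CPM (0.06 ± 0.29). Both overlapped.

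Dendritic and Langerhans cell genes had 0 of 6 called by edgeR, and at an unadjusted p under 0.05 it had 2 up and 1 down, against 18.2% and 20.3% of all genes. DESeq2 called Itgax and Irf8 higher and Zbtb46 lower, and limma-voom called 0. Irf8, a transcription factor of monocytes and cross-presenting dendritic cells, stood at 12.1, 13.1 and 9.66 CPM in KO against 9.002, 6.71 and 5.55 CPM in WT (0.71 ± 0.22, edgeR adjusted p = 0.0624). Itgax, the integrin CD11c, stood at 12.97, 15.05 and 11.8 CPM in KO against 10.98, 5.36 and 4.65 CPM in WT (0.92 ± 0.32, edgeR adjusted p = 0.0792). Zbtb46, a transcription factor of classical dendritic cells that endothelial cells also express, went the other way, at 3.51, 2.67 and 4.72 CPM in KO against 5.05, 6.61 and 5.98 CPM in WT (-0.69 ± 0.25, edgeR adjusted p = 0.0847). The groups were apart for these 3 genes. Flt3 stood at 2.03 to 3.36 CPM in KO and 0.547 to 2.35 CPM in WT (0.96 ± 0.49). Batf3, needed for cross-presenting dendritic cells, stood at 1.07 to 1.30 and 0.625 to 1.08 CPM (0.33 ± 0.29). Cd207, or langerin, the defining lectin of Langerhans cells, stood at 2.96, 6.06 and 4.53 CPM in KO and 5.05, 2.33 and 3.36 CPM in WT (0.34 ± 0.35). Groups overlapped for Flt3, Batf3 and Cd207.

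Neutrophil-type and resident macrophage genes can be set against each other within a library, which removes the library's scale. The mean log2 CPM of the 5 tested neutrophil-type genes minus that of the 10 tested resident macrophage genes was -2.53, -2.76 and -2.23 in KO and -3.42, -5.28 and -5.16 in WT. The KO libraries lay close together, and WT replicate 1 stood between them and the other WT libraries. The means were -2.51 ± 0.263 and -4.62 ± 1.04 (SD, n = 3), a difference of 2.11. Since Trem1, Clec4d and Clec4e entered the test through their KO libraries, this difference and those of the medians that follow describe genes partly selected for being high in KO. The difference between the roles' median log2 fold changes was 1.60, or 3.02 without WT replicate 1, 0.75 with the muscle mean and 0.27 with the keratinocyte mean as a covariate. It was 1.49 with sex as a covariate and 1.82 when libraries were scaled to the leukocyte markers. The muscle and keratinocyte means were apart between the labels, so fits with them cannot tell label from tissue content. No test was made over these lists.

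**Figure D3:**
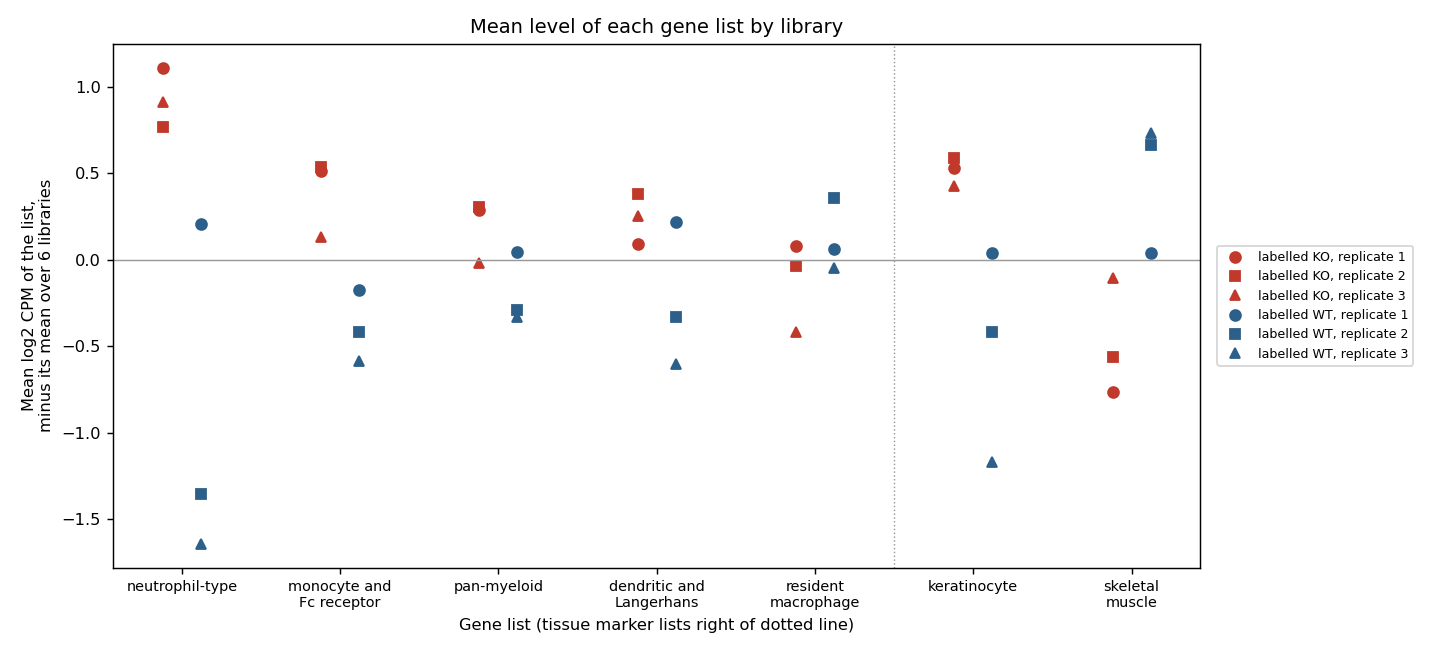
Mean log2 CPM of each role's tested genes by library, and of the keratinocyte and skeletal muscle markers, each minus its mean over the 6 libraries (y axis). WT replicate 1 lies between the KO libraries and the other WT libraries for the neutrophil-type and the keratinocyte genes, while the groups overlap for the resident macrophage genes.

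Reads were also counted per 100 Csf1r reads for some genes chosen after their values were seen, so these ratios restate the levels above on another scale and are no further evidence. Csf3r had 26.2, 21.6 and 38.1 reads per 100 Csf1r reads in KO and 17.2, 7.62 and 8.54 in WT. Folr2 had 11.8, 11.6 and 9.03 in KO and 19.4, 30.8 and 30.3 in WT. The groups were apart for both, in opposite directions, so that 100 Csf3r reads went with 23.7 to 53.6 Folr2 reads in KO and with 113 to 404 in WT. Itgax had 31.8 to 38.6 reads per 100 Csf1r reads in KO and 12.1 to 28.6 in WT, and Tyrobp 30.1 to 37.6 and 19.2 to 27.0. Mrc1 (43.1 to 59.5 and 46.1 to 56.4) and C1qa (102 to 122 and 91.9 to 107) overlapped. Csf1r shares exonic bases with Hmgxb3 on the opposite strand, so its own count may hold reads of that gene.

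**Figure D4:**
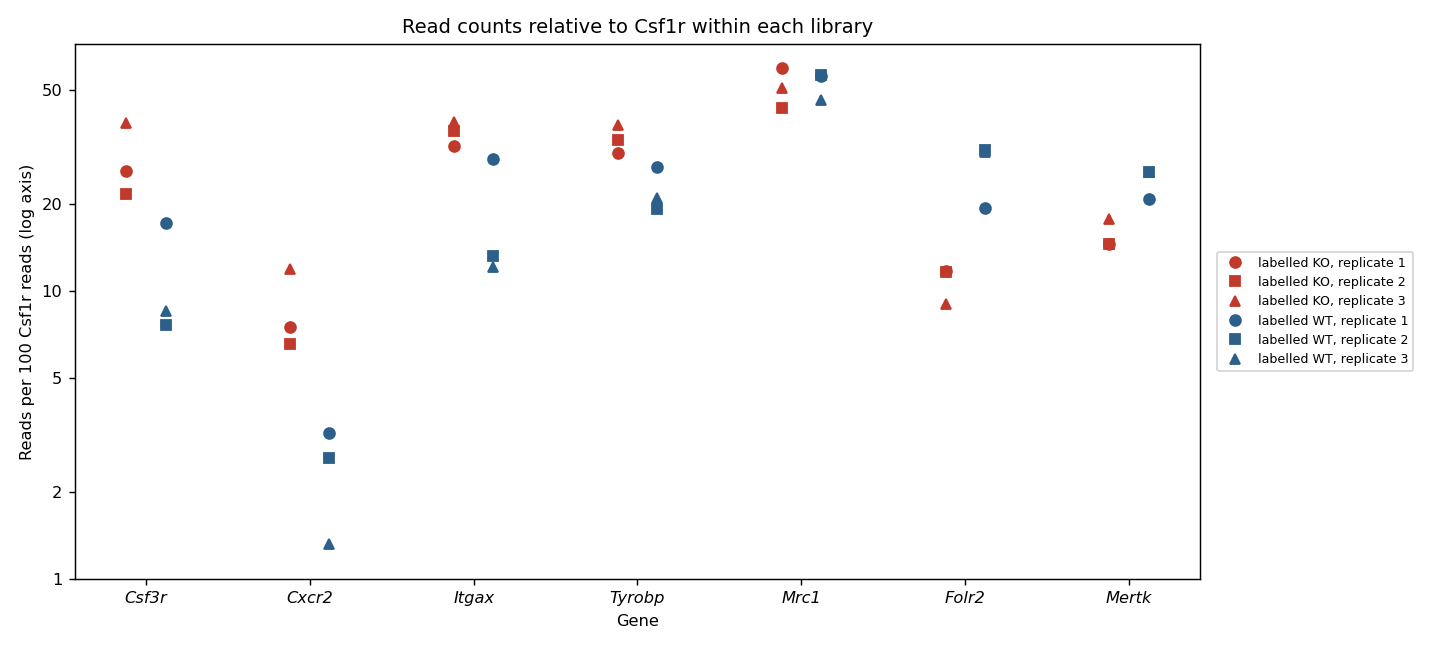
Reads per 100 Csf1r reads in the same library (y axis, log scale) for 7 genes, with 1 point per library. Csf3r, Cxcr2, Itgax and Tyrobp are higher in each KO library, Folr2 and Mertk lower, and Mrc1 overlaps.

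Per kilobase of exon, which allows levels of different genes to be compared, the C1q genes, Csf1r and Lyve1 were above every neutrophil-type gene in both groups, while Folr2 was above Csf3r only in the means of WT. C1qa had 39.9 CPM per kilobase in KO and 36.7 in WT, Csf1r 6.54 and 6.77, Lyve1 5.39 and 7.24 and Folr2 2.68 and 6.80. Csf3r had 2.90 and 1.20, Clec4d 1.70 and 0.303, and Trem1 0.516 and 0.135 CPM per kilobase. Lyz2 was the highest of the 39 genes in the table, at 71.1 in KO and 78.3 in WT. Arg1 stood at 32.0 in KO and 8.05 in WT, so that it passed C1qb (30.7 and 30.6) in the means of the KO libraries and was below it in those of WT.

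Of 20 further genes of neutrophil granules and activation, 14 were tested, 4 rose and 0 fell, with a median of 1.80, beside 4.81% of all genes tested that rose and 7.43% that fell. Retnlg, Ltf and Mmp8, a neutrophil collagenase, reached the limit on low counts in fewer than 3 WT libraries and entered through KO, so this count and median are a description only. Cxcr2, the neutrophil receptor for CXC chemokines, stood at 3.05, 2.75 and 3.62 CPM in KO against 1.23, 1.06 and 0.508 CPM in WT (1.72 ± 0.33, edgeR adjusted p = 0.0325), with no overlap. Retnlg, a resistin-like protein of neutrophils, had 65, 23 and 77 reads in KO and 5, 10 and 3 in WT (2.82 ± 0.47, edgeR adjusted p = 0.0306). Ltf, lactoferrin, which glands and epithelium also make, was at 3.66 ± 0.48, and Hdc, the histamine-forming enzyme that mast cells share, at 1.16 ± 0.30. The mast cell markers summed to 66.2 to 77.4 CPM in KO and 63.4 to 77.2 CPM in WT. S100a8 and S100a9, calprotectin of neutrophils and of stressed keratinocytes, differed widely between WT libraries. S100a9 stood at 343, 1207 and 640 CPM in KO and at 173, 14.9 and 5.86 CPM in WT (3.50 ± 1.18, edgeR adjusted p = 0.0768). Elane, neutrophil elastase of the primary granules, which form in bone marrow, had 0 reads in all 6 libraries, and 3 reads, the limit that a count of 0 allows, would be 0.117 CPM in WT replicate 3. Mpo, myeloperoxidase of the same granules, had 1 to 6 reads per library.

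Of 18 genes that recruit or sustain neutrophils and monocytes, 17 were tested, 5 rose and 0 fell, with a median of 1.10, beside the same 4.81% and 7.43% of all genes. Of the 5, Cxcl5, Ccl3 and Ccl4 reached the limit on low counts in fewer than 3 WT libraries, as did Cxcl2, Cxcl3, Csf3, Ccl20, Il17a and Il6, so these numbers too are a description only. Cxcl5, a neutrophil-attracting chemokine of epithelium, stood at 4.92, 5.71 and 7.43 CPM in KO against 1.63, 0.354 and 0.117 CPM in WT (3.08 ± 0.68, edgeR adjusted p = 0.0371). Il1a, an alarm cytokine, rose from 2.54 ± 1.82 to 10.4 ± 0.432 CPM (2.02 ± 0.44). Ccl4 (2.21 ± 0.47) and Ccl3 (2.07 ± 0.50), which attract monocytes and lymphocytes, and Il34, a ligand of Csf1r made by keratinocytes (0.69 ± 0.14), also rose. Some other recruiting genes, chosen after their values were seen, were as high in WT replicate 1 as in some or all KO libraries. Cxcl1 stood at 7.91, 3.25 and 6.66 CPM in KO and 7.77, 0.605 and 0.625 CPM in WT, Il17a at 1.504, 3.41 and 1.79 and at 4.50, 0.0625 and 0 CPM, and Csf3, the ligand of Csf3r, at 0.937, 0.106 and 0.925 and at 1.09, 0.0625 and 0 CPM. None of these 3 passed (edgeR adjusted p = 0.434, 0.770 and 0.630). Csf1, the main ligand of Csf1r, was at -0.07 ± 0.13.

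In a wider list of tissue macrophage genes, 19 were tested, with a median of 0.08 and 11 of them above 0. Of the 19, 2 fell (10.5%), near the 7.43% of all genes that fell. Mertk, a receptor for dying cells, fell from 9.47 ± 1.33 to 5.82 ± 0.374 CPM (-0.70 ± 0.17, edgeR adjusted p = 0.0411), and Slc40a1, the iron exporter ferroportin, from 27.5 ± 2.96 to 16.0 ± 2.46 CPM (-0.78 ± 0.16, edgeR adjusted p = 0.0335). The groups did not overlap for either. In the whole list, 5 genes were lower and 5 higher in KO without overlap (26.3% each), against 22.1% and 22.0% of all genes tested. Of 16 further genes of dendritic cells, 1 rose and 0 fell, with a median of 0.48, which is near the 4.81% of all genes that rose. The gene was Fscn1, an actin-bundling protein of mature dendritic cells and of other cells, at 64.1, 41.4 and 79.8 CPM in KO against 37.7, 21.1 and 27.9 CPM in WT (1.10 ± 0.28, edgeR adjusted p = 0.0453). Markers of other leukocytes were measured beside these. The 8 tested T and NK cell markers had a median of 1.31. All 9 in the table summed to 16.5 to 25.3 CPM in KO and 4.14 to 14.9 CPM in WT. Of these markers, Cd8a, Nkg7, Gzma and Gzmb reached the limit on low counts in fewer than 3 WT libraries and entered through KO. The same held for Il12b of the further dendritic cell genes, so the medians of these 2 lists are a description only. The 6 pan-leukocyte markers had a median of 0.59 and summed to 118 to 156 CPM in KO and 68.8 to 114 CPM in WT. The 5 B cell markers summed to 2.18 to 3.08 CPM in KO and 1.46 to 4.73 CPM in WT. The groups were apart for the T and NK cell and pan-leukocyte sums, with WT replicate 1 again the highest of WT.

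In the authors' deposited table, with its sign turned to KO over WT, 12 of the 37 members with an adjusted p were higher and 2 lower, against 12.4% and 16.3% of all genes with one. Beside the genes called above, the authors' deposited table had Trem1, Fpr2, Mpeg1, Tyrobp, Fcgr3, Fcgr4, Itgax and Irf8 higher and Zbtb46 lower. Its largest log2 fold changes among members were 1.81 ± 0.366 for Clec4d and 1.74 ± 0.270 for Arg1 (SE), and Folr2 had -1.21 ± 0.265. Each of these 3 values was nearer to 0 than the edgeR value of the same gene. Some members share sequence with other genes. For 8 of the 40, over 5% of the 50-base stretches of their GENCODE transcripts also stand in another gene, so that their reads may be split or lost. The shares were 66.3% for Itgam (with Gm49368), 46.7% for Lilrb4 (Gm49339), 31.5% for Fpr2, 15.4% for Lyz2 (Lyz1), 14.4% for Ly6c2 (Ly6c1), 10.5% for Csf3r, 9.58% for Fcgr3 (Fcgr2b) and 8.02% for Itgax (Itgad). For Clec4d, Folr2, Arg1, Cd14 and the C1q genes the share was 0%.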

How the data were processed

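The deposited data are 3 tables over 1 set of genes. The table with all 6 libraries was used, and both smaller tables of 4 libraries hold identical counts. Its values are raw read counts per gene, and, per the file headers, the authors' DESeq2 output beside them: a mean normalised signal, a log2 fold change with its SE, a test statistic (a score) and p-values. The submitters' processing notes name HTSeq, DESeq2, hg19 and mm10, and give no aligner, annotation or strand setting.

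The counts were fitted with edgeR 4.0.16 (R 4.3.3). Low genes were removed by filterByExpr (minimum count 10, total 15), scaled by TMM and fitted with a robust quasi-likelihood model on group. P-values were adjusted by Benjamini-Hochberg over 15903 genes. SE is the absolute log2 fold change over the square root of the F statistic, so it and the 95% intervals are approximate. Mean log2 CPM used a prior count of 2. The fit was tested on simulated data. A gene at 1 CPM had 25.6 to 53.0 reads. Alternatives used DESeq2 1.42.0, limma 3.58.1 (voom), other scalings, filters and covariates. Exon lengths and shared stretches are from GENCODE M21, and positions and promoters from RefSeq, both GRCm38. Every member was named, and genes of the wider lists where called, up to 4 per list by adjusted p; Ccl3, S100a9, Elane, Mpo, Cxcl1, Il17a, Csf3 and Csf1 were chosen after their values were seen, as were the motifs and the read ratios. The members and lists were chosen with earlier results of these data known. A result of the wider tissue macrophage list is not reported here.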

Additional observations from a re-analysis of the deposited data

How the results depend on the processing

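The calls changed with the libraries kept and with the covariates in the fit. Leaving out 1 library at a time, edgeR called 0 to 2906 genes higher and 0 to 2938 lower over all genes, 0 to 18 myeloid genes higher and 0 to 1 lower. At an unadjusted p under 0.05, 6 to 19 myeloid genes were higher and 1 to 4 lower in those fits, against 16 and 2 with all libraries. The neutrophil-type minus resident macrophage difference of medians was 1.32 to 3.02. Each of the 5 called genes had the same sign under all 16 alternatives, and Csf3r was called in 7 of them, Clec4d in 9, Folr2 in 8, Cd14 in 7 and Arg1 in 10. With DESeq2, 1881 genes were higher and 2468 lower, with 12 and 2 myeloid genes. With the muscle mean, the keratinocyte mean or sex as a covariate, edgeR called 0 genes in either direction. The muscle and keratinocyte means did not overlap between the labels, so those fits cannot tell label from tissue content. Unadjusted p-values under 0.05 numbered 197 up and 209 down with the muscle mean (0 and 0 myeloid), 315 and 473 with the keratinocyte mean (1 and 0) and 1672 and 1860 with sex (9 and 1). DESeq2 and limma were not run with covariates. The difference of medians was 0.75 with the muscle mean and 0.27 with the keratinocyte mean. Scaled to the leukocyte markers, 268 genes were higher and 6667 lower, with 3 and 9 myeloid genes, and the median of all genes moved from 0.02 to -0.68. C1qb was then at -0.72 (edgeR adjusted p = 0.0457, against 0.0457 to 1.00 over its alternatives), close to that shift, and the resident macrophage median at -0.78. Myeloid cells express those markers too, so that scaling is not independent of the members. The cause of these changes was not tested. RLE or upper-quartile scaling, limma-voom and no filter changed neither of the counts by over 1.5 times.

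The replicate numbers of the titles are shared between labels, and no source says that they pair animals. Deviations from the group means correlated by 0.12, -0.16 and 0.19 between same-numbered libraries over all genes tested. KO replicate 1 correlated best with WT replicate 2 (0.17), while the highest value, 0.19, was between KO replicate 3 and WT replicate 3. With so few libraries these values cannot decide on pairing. The numbers were not taken as pairs because no source states it. With the replicate block, edgeR called 1705 genes higher and 2112 lower, and 10 and 1 myeloid genes.

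Trem1, Clec4d, Clec4e, Fpr1 and Marco are limited by depth. Trem1 had 33, 9 and 2 reads in WT replicates 1, 2 and 3, and Clec4d had 33, 15 and 5.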
